A study of Mus musculus with 5 samples.

Results

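Vascular and myeloid cells of dissociated mouse islets were selected on their own transcripts and numbered 75 of 4687 cells (1.60%), 42 of them vascular and 33 myeloid. A cell was taken when the 7 hormone genes Ins1, Ins2, Iapp, Gcg, Sst, Ppy and Pyy made up less than 15% of its transcripts and 9 marker genes made up at least 0.5%. It was called myeloid when C1qb, Ctss, Cd74 and H2-Aa were the larger part of that marker share, and vascular when Plvap, Kdr, Flt1, Emcn and Rgs5 were. Because these values chose the cells, the levels of these genes and every difference between the chosen cells and the rest of the islet are given as a description with no test.

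Islet capillaries are lined by fenestrated endothelial cells, which answer vascular endothelial growth factor (VEGF) from the endocrine cells through the receptors Kdr and Flt1 and lay down the basement membrane that endocrine cells rest on. Pericytes wrap these capillaries. Islet macrophages sit along the vessels, present antigen on class II molecules of the major histocompatibility complex (MHC), make complement C1q, digest what they take up in lysosomes and, when activated, release chemokines under the control of NF-kB and type I interferon.

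The mice were of the C57BL/6 strain, with no altered allele and no agent named in the labels. Pregnant and postpartum islets were set against those of non-pregnant females, with 1 non-pregnant library, 2 pregnant libraries (pregnant 1 and pregnant 2) and 2 postpartum libraries (postpartum 1 and postpartum 2). The polyadenylated RNA of viable islet cells was captured with the inDrop method, in which droplets hold single cells and every captured molecule gets a unique molecular identifier (UMI). Ages, the day of pregnancy, the time since birth and the number of mice behind a library are not given in the sources at hand. The p-values of the main test measure only the spread between the 2 postpartum libraries, the only state tested with more than 1 library. That spread may be technical.

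Taking the non-pregnant library first, then both pregnant and both postpartum ones by number (library order below), they held 847, 1993, 164, 557 and 1126 cells, with a median of 2553, 539, 89, 236 and 572.5 UMIs per cell. Pregnant 2 stands apart by its depth and gave only 1 vascular and 1 myeloid cell, and the doublet caller marked both of them, so it enters no test. The non-pregnant file has another scale and feature list and is deeper than the other 4, which cannot be told apart from the non-pregnant state. Levels below are UMIs of a gene summed over the cells of a class in a library, per 1000000 UMIs of the 6619 shared non-hormone genes (CPM). The vascular cells carried 14013, 3871, 69, 796 and 4732 such UMIs and the myeloid cells 4662, 3488, 71, 273 and 3578. A gene without a UMI may therefore stand at up to 214, 775, 43478, 3769 and 634 CPM in vascular cells, and at up to 644, 860, 42254, 10989 and 838 CPM in myeloid cells (3 counts). Limits and intervals cover counting error only.

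In the non-pregnant library the vascular share was 1.18% (95% Clopper-Pearson interval 0.568 to 2.16). They made up 0.401% (0.173 to 0.789) of pregnant 1 and 0.610% (0.0154 to 3.35) of pregnant 2, and 1.08% (0.396 to 2.33) of postpartum 1 and 1.51% (0.882 to 2.41) of postpartum 2. The interval of postpartum 2 lies above that of pregnant 1, and all other pairs of libraries overlap. Among cells of at least 500 UMIs the order turns, with 2 of 677 cells (0.295%) in postpartum 2 against 4 of 1094 (0.366%) in pregnant 1 and 10 of 847 (1.18%) in the non-pregnant library. The myeloid share was 0.354% (0.0731 to 1.03) without pregnancy, 0.502% (0.241 to 0.921) in pregnant 1 and 0.610% (0.0154 to 3.35) in pregnant 2. In the postpartum libraries they made up 0.539% (0.111 to 1.57) and 1.42% (0.814 to 2.30). All of these myeloid intervals overlap. Among cells of at least 500 UMIs the myeloid shares were 0.354% in the non-pregnant library, 0.183% in pregnant 1 and 0.148% in postpartum 2, so neither share is highest in postpartum 2 under that cut. The cut drops most members of postpartum 2, whose medians were 379 vascular and 305 myeloid UMIs. With cells thinned to 200 UMIs instead, the vascular and myeloid shares were 1.51% and 1.42% in postpartum 2. They were then 0.401% and 0.502% in pregnant 1, and 1.42% and 0.354% in the non-pregnant library. An exact permutation test of 2 libraries against 2 cannot go below p = 0.333, so the shares were not tested.

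**Figure D1:**
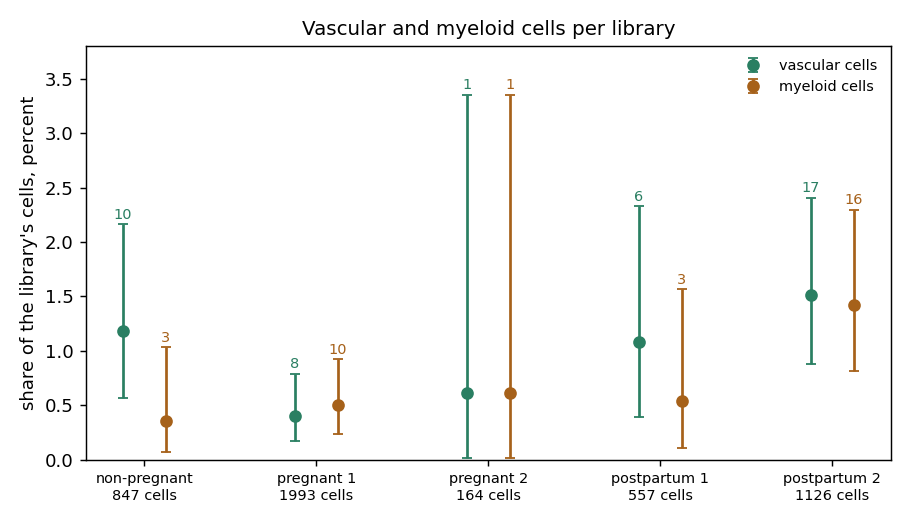
Share of each library's cells called vascular (green) or myeloid (brown), in percent, with exact 95% binomial intervals as bars and the number of cells above each bar. Over cells of any depth both shares are highest in postpartum 2, at 1.51% and 1.42%. This does not hold among cells of at least 500 UMIs (0.295% and 0.148%) and holds with cells thinned to 200 UMIs (1.51% and 1.42%). The single cells of pregnant 2 carry intervals that span those of all other libraries.

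The vascular share of pregnant 1 depends on the marker threshold: at 1% it would be 4 of 1993 cells (0.201%), and 7 of 847 (0.826%) in the non-pregnant library. The 3 members nearest the marker threshold carried 0.625% to 0.709% marker transcripts and the nearest 4 cells outside it 0.327% to 0.496%. The 2 members with the most hormone transcripts carried 9.28% and 9.61%, and the nearest 3 cells outside that limit 15.1% to 18.5%. A further 2, 17, 0, 8 and 9 cells past the marker threshold, in library order, had too many hormone transcripts to be taken. Of the 42 vascular cells, 1 (non-pregnant) had a UMI of a myeloid marker, Ctss, and 0 of the 33 myeloid cells had a UMI of a vascular one.

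The vascular label was checked on markers that the selection did not use. Of 18 endothelial markers the files share 8, and all 8 were found in the vascular cells. Their summed level was 18341 to 25904 CPM in the 4 libraries with at least 6 vascular cells, against 130 to 487 CPM in all other cells of the 5 libraries. Pecam1, Cdh5, Cd93, Egfl7, Eng or Esm1, which encode junction and surface proteins of endothelium and secreted factors made there, had a UMI in 10 of 10 non-pregnant vascular cells. The same held for 7 of 8 in pregnant 1, 5 of 6 in postpartum 1 and 13 of 17 in postpartum 2. Depth differs between libraries, so the share was also computed for cells thinned to 120 UMIs. It was then 82.7%, 68.5%, 68.3% and 58.3%, against 0.278% to 2.14% of the cells that are neither vascular nor myeloid.

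The non-pregnant file lists more genes and allowed a wider check. Of 10 further endothelial markers 9 had UMIs in its vascular cells, 88 in all, and 0 UMIs in its myeloid cells. Of 9 further macrophage markers all 9 had UMIs in its 3 myeloid cells, 39 in all, and 0 in its vascular cells. Markers of B cells, T and NK cells, neutrophils, ductal cells and Schwann cells had 0 UMIs in both classes. Of 12 pericyte and mesenchymal markers the vascular cells held 1 UMI, of Notch3, and the myeloid cells 1, of Cspg4, and the dendritic markers Zbtb46 and Itgax had 1 UMI each. No marker of dendritic cells, B cells, T and NK cells, neutrophils or Schwann cells is among the genes that all files share, so those classes were not checked outside the non-pregnant library.

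The 5 vascular selection genes were not spread evenly over the cells. Plvap, which forms the diaphragm of endothelial fenestrae, had 85 UMIs in the non-pregnant vascular cells, 10 in pregnant 1, 1 in postpartum 1 and 8 in postpartum 2, that is 6066, 2583, 1256 and 1691 CPM. It was found in 10 of 10, 3 of 8, 1 of 6 and 6 of 17 cells. Kdr, the main signalling receptor of VEGF, had 51, 11, 4 and 52 UMIs in the same order, or 3639, 2842, 5025 and 10989 CPM. Kdr was highest in postpartum 2, and the 5025 CPM of postpartum 1 rest on 4 UMIs. Flt1, which binds VEGF with high affinity, stood at 3497, 1808, 7538 and 7608 CPM, and Emcn, a sialomucin of capillaries and veins, at 6280, 5942, 10050 and 2325 CPM. Flt1 had 49, 7, 6 and 36 UMIs and Emcn 88, 23, 8 and 11. The Flt1 level was higher in both postpartum libraries than in pregnant 1, in postpartum 1 from only 6 against 7 UMIs. For Emcn the postpartum libraries lay on both sides of pregnant 1. For Plvap the 1 UMI of postpartum 1 is under 3 counts (3769 CPM), so it cannot be placed below pregnant 1. Postpartum 2 was lower in Plvap than pregnant 1 from 8 against 10 UMIs. On GRCm38.p6, Plvap lies on chromosome 8 from 71497753 to 71511806, Kdr on chromosome 5 from 75932827 to 75979072, Flt1 on chromosome 5 from 147561604 to 147726438 and Emcn on chromosome 3 from 137341062 to 137431069.

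Rgs5, a regulator of G protein signalling that is abundant in pericytes, led the marker share of 5 vascular cells: 1 in pregnant 2, 1 in postpartum 1 and 3 in postpartum 2. Of these 5 cells, 2 had a UMI of Plvap, Kdr, Flt1 or Emcn, and 1 had a UMI of Pecam1, Cdh5, Cd93, Egfl7, Eng or Esm1, against 34 of the other 37 vascular cells. Matrix genes were found in both sets: Sparc in 4 of 5 and 35 of 37 cells and Col4a1 in 4 of 5 and 22 of 37. Rgs5 is the only pericyte marker that the files share, so these 5 cells keep the name of the gene that leads them. Of the libraries that enter the tests only the postpartum ones hold such cells, and their part in vascular differences between states was not tested. The vascular cell of pregnant 2 is one of them, and 22 of its 71 UMIs were of Rgs5, 11 of Nfkbia and 5 of H2-Q4.

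Beyond the selection genes, the vascular cells were set apart by matrix and endothelial genes. Ranked by the mean log2 ratio to all other cells of the same libraries (300 CPM added), the first 15 were Sparc, Plpp3, Timp3, Col4a1, Cd93, Igfbp3, Nrp1, Pecam1, Epas1, Mmrn2, Col4a2, Ier3, Ctla2a, Cdh5 and Plpp1, with mean ratios from 4.50 to 2.66. Sparc, a secreted protein that binds collagen and shapes basement membranes, had 116 UMIs in the non-pregnant vascular cells, 62 in pregnant 1, 8 in postpartum 1 and 52 in postpartum 2. This gives 8278, 16016, 10050 and 10989 CPM, against 314, 268, 37.0 and 233 CPM in all other cells. It was the most widely found of the 15, in 39 of the 42 vascular cells. The postpartum libraries lay between the non-pregnant and pregnant 1 levels, and the postpartum minus pregnant difference of -0.59 ± 0.18 (SE) on the log2 scale did not pass (limma adjusted p = 0.468).

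**Figure D2:**
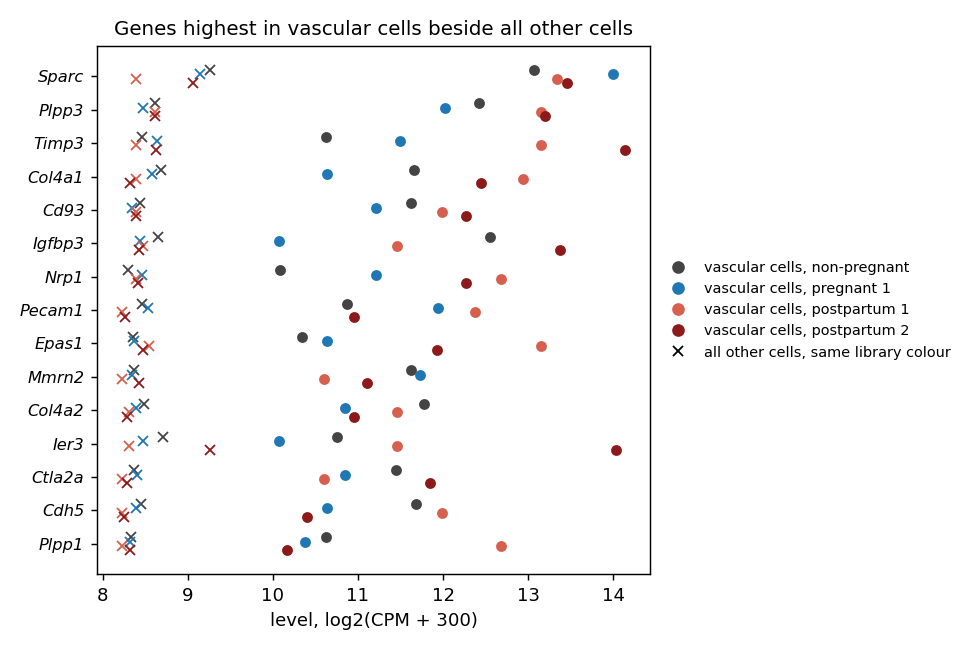
Level as log2(CPM + 300) of the 15 genes that rank highest in vascular cells, with circles for vascular cells and crosses for all other cells, coloured by library (non-pregnant, pregnant 1, postpartum 1, postpartum 2). Circles lie to the right of the crosses of their library for all 15 genes, as for Sparc at 8278 to 16016 CPM against 37.0 to 314 CPM, and Timp3 and Ier3 spread furthest between libraries.

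The capillary basement membrane was represented by 9 of 21 listed genes, whose summed level was 27546, 30483, 33920 and 60017 CPM in the order non-pregnant, pregnant 1, postpartum 1 and postpartum 2. Timp3, which inhibits matrix metalloproteinases and blocks VEGF binding to Kdr, had 18, 10, 7 and 84 UMIs, or 1285, 2583, 8794 and 17752 CPM. Both postpartum libraries were above the other libraries, and the log2 difference was 2.15 ± 0.67 to pregnant 1 and 3.02 ± 0.67 to the non-pregnant library (limma adjusted p = 0.468 and 0.325). In postpartum 2 the gene was found in 15 of 17 vascular cells and the highest cell held 14 of the 84 UMIs, while 2 cells led by Rgs5 held 8 and 7. Col4a1 and Col4a2, the chains of the main basement membrane collagen, had 41, 5, 6 and 25 and 45, 6, 2 and 8 UMIs. Of the 9 genes 5 were higher and 4 lower in the postpartum than in the pregnant libraries, with a median log2 difference of 0.36 against -0.15 over all 515 genes tested, and 0 of the 9 were called. A gene entered the test with 10 UMIs over the libraries and could do so through the library where it is high, so these counts and medians over lists are descriptions.

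Receptors and partners of VEGF and angiopoietin signalling showed no common direction. The 12 measured of 26 listed genes summed to 27617, 22216, 28894 and 34658 CPM, and to 278 to 674 CPM in all other cells of these 4 libraries. Of the 10 genes tested 5 were higher and 5 lower in postpartum than in pregnant vascular cells, with a median of 0.03. Nrp1, a coreceptor of VEGF, had 11, 8, 5 and 22 UMIs, or 785, 2067, 6281 and 4649 CPM. Both postpartum libraries were above pregnant 1, by 1.27 ± 0.36 on the log2 scale (limma adjusted p = 0.44). S1pr1, the endothelial receptor of sphingosine 1-phosphate, had 43, 9, 0 and 6 UMIs, and Esm1, a secreted proteoglycan of VEGF-stimulated tip cells, had 65, 13, 0 and 7. The 0 UMIs of postpartum 1 allow up to 3769 CPM, which is above the 2325 and 3358 CPM of S1pr1 and Esm1 in pregnant 1.

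Of 14 listed VEGF ligands and islet angiogenic factors 6 were measured and 4 tested, and all 4 were lower in postpartum vascular cells, with a median log2 difference of -2.22 to pregnant 1 (all genes: -0.15) and -1.73 to the non-pregnant library (all genes: -0.57). Angpt2, which destabilises vessels by opposing Tie2 signalling, had 48, 8, 0 and 4 UMIs, and Thbs1, an inhibitor of angiogenesis, had 53, 22, 0 and 9. Pdgfb, which recruits pericytes, had 10, 5, 0 and 2 UMIs, and Pdgfa 3, 7, 0 and 1. None of the 4 was called, and postpartum 1 is again too shallow to place below pregnant 1 except for Thbs1, where its limit of 3769 CPM is below 5683 CPM. Vegfa itself, the main ligand of Kdr, stood at 429, 396, 463 and 374 CPM in all other cells of these libraries, and in vascular cells it had 6 UMIs, all in 1 cell of pregnant 1.

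Genes of endothelial transcription, transport, leukocyte adhesion and hormone signalling showed no call between the states in vascular cells. Endothelial transcription factors (9 of 21 measured) summed to 5424, 6975, 16332 and 8876 CPM in the order non-pregnant, pregnant 1, postpartum 1 and postpartum 2, and Epas1, the hypoxia-inducible factor of endothelium, had 14, 5, 7 and 17 UMIs. Genes of fenestrae, caveolae and transport across endothelium (7 of 15) summed to 11489, 5942, 7538 and 8876 CPM, and genes of leukocyte adhesion (6 of 18) to 10276, 17825, 18844 and 10144 CPM. Between postpartum and pregnant 2 of 5, 1 of 3 and 3 of 5 tested genes of these groups were higher, and 0 were called. Receptors and mediators of lactogens and sex steroids (9 of 15), which carry the hormonal signals of pregnancy, had 20, 4, 0 and 11 UMIs in all vascular cells, or 1427, 1033, 0 and 2325 CPM. In all other cells the same 9 genes stood at 2929, 2842, 6792 and 7281 CPM.

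Immediate early and stress genes, which are switched on within minutes by many stimuli and by tissue dissociation, were higher in both postpartum libraries. The 23 listed genes summed to 11918 CPM in non-pregnant and 13692 CPM in pregnant 1 vascular cells, and to 71608 and 78614 CPM in postpartum 1 and 2. In all other cells the sums were 6476, 9040, 30129 and 32180 CPM, so that vascular cells stood at 1.84, 1.51, 2.38 and 2.44 times the rest. The part of this wider difference in the vascular values was not tested. Of the 18 genes tested 14 were higher and 4 lower in postpartum than in pregnant vascular cells, with a median log2 difference of 2.32 against -0.15 over all genes. Against the non-pregnant library 16 were higher and 2 lower, with a median of 2.17 against -0.57. Members such as Hspa1a, Hspa1b and Egr1 passed the UMI filter only through the postpartum libraries and so had to be higher there. These counts and medians are therefore a description. The only member called was Jund, a Jun family transcription factor, which was lower: it had 9 and 2 UMIs in the non-pregnant and pregnant 1 cells and 0 in both postpartum libraries (-1.44 ± 0.04 (SE), limma adjusted p = 0.0433 against pregnant 1). Its pregnant 1 level of 517 CPM lies below the 543 CPM that 0 UMIs allow in the pooled postpartum cells, and the call was lost with edgeR, with DESeq2 and without the non-pregnant library.

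The heat shock genes Hspa1a and Hspa1b, near-identical neighbours whose reads counting can mix up, had 0 UMIs in the 10 non-pregnant and the 8 pregnant 1 vascular cells. Hspa1a had 5 and 26 UMIs in postpartum 1 and 2, or 6281 and 5495 CPM, and Hspa1b 7 and 24. In all other cells Hspa1a stood at 64.1, 12.1, 426 and 474 CPM. Egr1, an early growth response factor, likewise had 0, 0, 4 and 19 UMIs, and Junb had 18, 2, 7 and 41. The log2 differences between postpartum and pregnant vascular cells were 4.36 ± 0.41 for Hspa1a, 4.54 ± 0.62 for Hspa1b and 3.47 ± 0.23 for Junb, with limma adjusted p-values of 0.153, 0.219 and 0.0986. For Hspa1a and Hspa1b this size depends on the added 300 CPM and is no bound. Both passed the UMI filter only through the postpartum libraries and so had to be higher there, so their differences are a description. At 120 UMIs per cell, Hspa1a or Hspa1b was found in 74.8% and 39.0% of postpartum 1 and 2 vascular cells, against 3.63% and 3.21% of all other cells. Fos, Fosb, Egr1, Jun or Junb was found in 13.1%, 9.01%, 89.5% and 66.4% of vascular cells in library order without pregnant 2, against 8.44%, 4.17%, 25.5% and 24.0% of all other cells. Unthinned, these were 8 of 10, 4 of 8, 6 of 6 and 14 of 17 vascular cells.

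Ier3, an early response gene that protects from apoptosis, was carried mainly by 1 library. It had 20, 3, 2 and 78 UMIs, or 1427, 775, 2513 and 16484 CPM, against 120, 55.3, 18.5 and 314 CPM in all other cells. In postpartum 2 it was found in 11 of 17 cells and the highest cell held 19 UMIs, while in postpartum 1 it was found in 2 of 6. The postpartum libraries differ more from each other than postpartum 1 does from the non-pregnant library, and the difference to pregnant 1 was 2.68 ± 1.70 (limma adjusted p = 0.674). Igfbp3, which binds insulin-like growth factors, showed the same split, at 10355 CPM in postpartum 2 and 2513 CPM, from 2 UMIs, in postpartum 1, against 5709 and 775 CPM in the non-pregnant and pregnant 1 libraries.

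The test over all genes called few differences in vascular cells, and all of them were of 1 kind. Of 515 genes limma called 36 for pregnant against non-pregnant (6.99%), 54 for postpartum against non-pregnant (10.5%) and 17 for postpartum against pregnant (3.3%), all of them lower in the state named first. Every called gene had 0 UMIs in both postpartum libraries, which are the only replicates in the fit, so its spread there is 0. In 16 of the 17 calls between postpartum and pregnant the pregnant level itself lay at or below what 0 UMIs would allow in the pooled postpartum cells (543 CPM). These are genes near the detection limit of the pooled cells. Among them are Tram1, part of the protein translocation channel, with 1 UMI, Gas5, a noncoding RNA that hosts small nucleolar RNAs, Golga7, Psmd2, Wdr82, Ybx3 and Lysmd3, at -0.90 each, and Bzw1, Fndc3b and Spcs2 at -1.44 (limma adjusted p = 0.0405 for each of the 10). With the non-pregnant library left out, 0 genes were called between postpartum and pregnant.

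Against the non-pregnant library the called vascular genes included Oaz1, an inhibitor of polyamine synthesis, Rpl32, a ribosomal protein, Dctn1, a dynactin subunit, Klf7, Rabggtb, Rnf44, Tnks2 and Tor1aip2. These 8 shared a log2 difference of -1.76 in both comparisons (limma adjusted p = 0.000559 for pregnant and 0.000434 for postpartum), because each had 10 UMIs in the non-pregnant cells and 0 elsewhere. They passed the 10-UMI filter only through that library, and their small p-values come from the 0 spread of the postpartum pair, so they are no measure of replicate error in either lone library. Hbp1 and Tmed5 followed at -1.85. Of the 54 genes lower in postpartum, 43 were also lower in all other cells of both postpartum libraries and 8 encode ribosomal proteins. Of the 36 lower in pregnant 1, 29 were lower in its other cells and 7 encode ribosomal proteins. The making of the non-pregnant file cannot be told apart from the state in either comparison. On the recovered UMIs edgeR and DESeq2 called 0 vascular genes in all 3 comparisons, with 4, 28 and 13 genes at an unadjusted p under 0.05 by edgeR and 2, 14 and 6 by DESeq2.

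**Figure D3:**
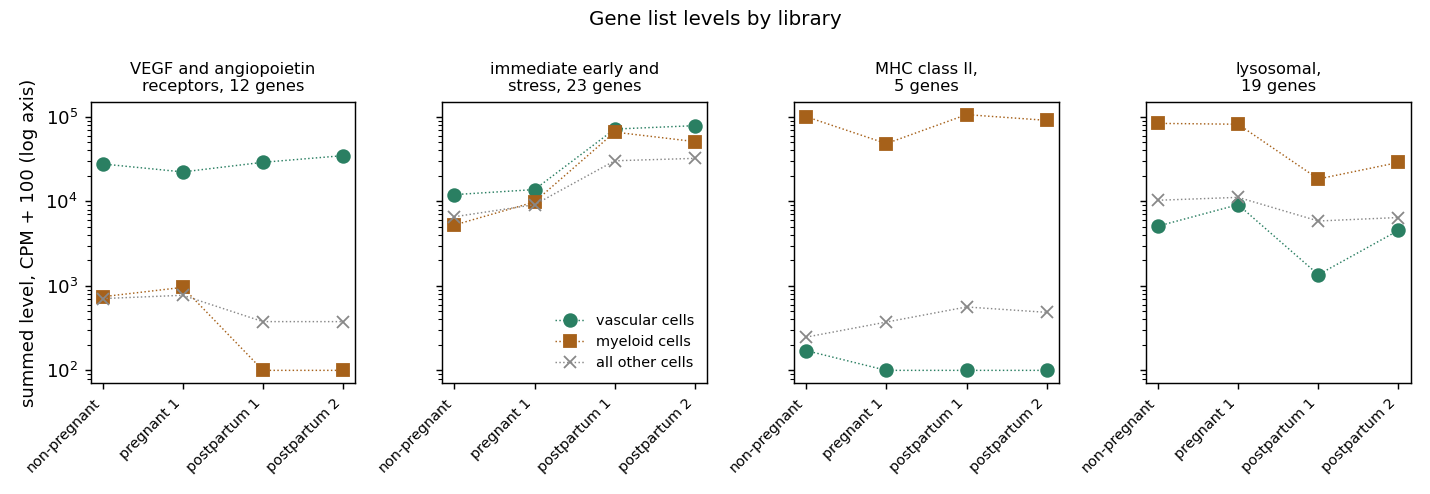
Summed level of 4 gene lists on a log axis, as CPM with 100 added, in vascular cells (green circles), myeloid cells (brown squares) and all other cells (grey crosses) of the 4 libraries with at least 3 cells of each class. The immediate early list is higher in all 3 cell groups of both postpartum libraries, reaching 78614 CPM in vascular cells, and the lysosomal list in myeloid cells stands at 81709 CPM in pregnant 1 and at 18315 and 28787 CPM in postpartum 1 and 2.

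Myeloid cells carried antigen presentation and complement genes in addition to the 4 genes that chose them. Cd74, the invariant chain of MHC class II, had a UMI in 33 of 33 cells, and 15 of the 33 had UMIs of all 4 selection genes. The non-selection genes that ranked highest against all other cells were H2-Eb1, Apoe, Tmsb4x, Fth1, Ccl4, H2-Ab1, Isg15, C1qa, Lgals3, B2m, Cxcl2, C1qc, Laptm5, Mpeg1 and Srgn, with mean log2 ratios from 6.08 to 2.41. They include chains of MHC class II and of C1q, the lipid carrier Apoe, the iron store Fth1, the lysosomal membrane protein Laptm5 and Mpeg1, a pore-forming protein of macrophages. Of 12 macrophage markers the files share 3, C1qa, C1qc and Fcer1g, which summed to 13085, 19209, 0 and 8385 CPM in the order non-pregnant, pregnant 1, postpartum 1 and postpartum 2 and to 0 in vascular cells of all 5 libraries. The label of the 3 myeloid cells of postpartum 1 therefore rests on the selection genes and H2-Eb1.

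The 5 measured of 14 MHC class II genes summed to 100386 CPM in non-pregnant, 48165 CPM in pregnant 1 and 106227 and 90833 CPM in postpartum myeloid cells, against 148 to 463 CPM in all other cells of these libraries. Cd74, H2-Aa and Ctss among them chose the cells. The 2 remaining chains gave differences of opposite sign, neither of which passed. H2-Eb1 had 116, 36, 14 and 152 UMIs, or 24882, 10321, 51282 and 42482 CPM, and was found in 3 of 3, 10 of 10, 3 of 3 and 16 of 16 cells. H2-Ab1 had 72, 18, 0 and 6 UMIs, or 15444, 5161, 0 and 1677 CPM. Both postpartum libraries were above pregnant 1 for H2-Eb1, with a log2 difference of 2.15 ± 0.37, while that of H2-Ab1 was -2.83 ± 1.82 (limma adjusted p = 0.355 and 0.67). The 0 UMIs of H2-Ab1 in postpartum 1 allow up to 10989 CPM, which is above the pregnant 1 level. H2-Ab1 lies on chromosome 17 from 34263227 to 34269418 and H2-Eb1 on the same chromosome from 34305867 to 34316674 (GRCm38.p6), with H2-Aa between them from 34282744 to 34287823.

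Genes of MHC class I and the interferon response (15 of 22 measured) summed to 22952, 20929, 36630 and 23197 CPM in myeloid cells of the non-pregnant, pregnant 1, postpartum 1 and postpartum 2 libraries. Of 5 tested, 3 were higher and 2 lower in postpartum than in pregnant cells, with 0 called. Apoe, which carries lipids out of macrophages, made up most of the 3 measured of 19 scavenger and lipid genes. It had 26, 53, 13 and 62 UMIs, or 5577, 15195, 47619 and 17328 CPM, and the difference between postpartum and pregnant was 0.91 ± 0.97 (limma adjusted p = 0.843). Postpartum 1 was well above pregnant 1 for Apoe, while postpartum 2 was close to it.

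Fth1 ranks among the genes that set the class apart, and it and Ftl1, chosen after its values were seen, encode the heavy and light chains of the iron store ferritin. They had 310, 135, 2 and 65 and 22, 114, 1 and 23 UMIs in the same order. Ftl1 stood at 4719, 32684, 3663 and 6428 CPM, against 634, 5068, 999 and 1065 CPM in all other cells. For Ftl1, pregnant 1 was thus the highest of these libraries in myeloid cells and in all other cells. All other cells of pregnant 2 stood at 5395 CPM. The log2 difference of Ftl1 between postpartum and pregnant myeloid cells was -2.68 ± 0.65 (limma adjusted p = 0.413), and what the level in all other cells adds was not tested.

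Complement C1q, which tags debris for uptake, is encoded by C1qa, C1qb and C1qc, side by side on chromosome 4 (136895916 to 136898844, 136880126 to 136886200 and 136889801 to 136892936). C1qa had 36, 35, 0 and 19 UMIs in the order non-pregnant, pregnant 1, postpartum 1 and postpartum 2, and C1qc 17, 23, 0 and 4. A UMI of any of the 3 genes was found in 3 of 3, 9 of 10, 0 of 3 and 13 of 16 myeloid cells and in 0 vascular cells. The myeloid cells of postpartum 1 are 3 shallow cells, and their 0 UMIs allow up to 10989 CPM, which is above the 10034 CPM of C1qa in pregnant 1. At 120 UMIs per cell the expected numbers were 2.47 of 3, 7.38 of 10, 0 of 3 and 8.29 of 16, and 0.693% to 1.25% of all other cells had such a UMI. The 3 tested genes of the complement and Fc receptor list were C1qa, C1qc and Fcer1g. All 3 were lower in postpartum than in pregnant cells, with 0 called. Their median log2 difference was -2.99, and that over all 166 genes tested was below 0 as well, at -0.56.

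Lysosomal protease genes and chemokine genes stood in opposite order over the libraries. Lysosomal genes were abundant in non-pregnant and pregnant 1 cells and lower in both postpartum libraries. Ctsb, a lysosomal cysteine protease, had 112 UMIs in the 3 non-pregnant cells, 75 in the 10 cells of pregnant 1, 0 in postpartum 1 and 4 in the 16 cells of postpartum 2. This gives 24024 (exact Poisson interval 19781 to 28907), 21502 (16913 to 26953), 0 (up to 10989 at 3 counts) and 1118 (305 to 2862) CPM, and the postpartum intervals lie below those of the other libraries. In all other cells Ctsb stood at 1229, 961, 241 and 386 CPM, so the direction was the same there, and its part in the myeloid values was not tested. Per cell, Ctsb ranged from 34 to 39 UMIs in the non-pregnant library, from 1 to 14 in pregnant 1 and from 0 to 2 in postpartum 2.

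Other lysosomal genes also had few UMIs in the postpartum cells. Ctsd, an aspartic protease, had 11, 23, 0 and 0 UMIs, Ctsz 15, 7, 0 and 1, Lgmn, an asparagine-specific protease, 12, 12, 0 and 1, and Psap, the precursor of the saposins, 111, 76, 1 and 27. The 19 measured of 22 listed lysosomal genes, Ctss included, summed to 83655, 81709, 18315 and 28787 CPM, against 10205, 11057, 5756 and 6340 CPM in all other cells. All 12 genes tested were lower in the postpartum than in the pregnant libraries, with a median log2 difference of -1.72 against -0.56 over all 166 genes, and 0 of them were called by limma. On the recovered UMIs edgeR called Ctsb (-4.36, edgeR adjusted p = 0.0436) and Ctsd (-7.28, edgeR adjusted p = 0.00618). The latter size depends on the prior count, as no postpartum cell held a Ctsd UMI. Hmox1, which breaks down haem and was chosen after its values were seen, was also called (-3.52, edgeR adjusted p = 0.0414), but its 42 UMIs in pregnant 1 came from 5 of 10 cells and 19 of them from 1 cell.

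Chemokine and NF-kB genes were low in the non-pregnant and pregnant 1 cells and abundant in postpartum ones. The immediate early and stress list moved with them in the same myeloid cells, at 5148, 9748, 65934 and 50866 CPM, and its part in the chemokine and NF-kB values was not tested. Ccl4, a chemokine that draws T cells and monocytes, had 0 UMIs in the non-pregnant myeloid cells, 4 in pregnant 1, 13 in postpartum 1 and 125 in postpartum 2. Its level was 0 (up to 644 at 3 counts), 1147 (312 to 2936), 47619 (25355 to 81430) and 34936 (29080 to 41624) CPM, against 0.772, 10.4, 148 and 213 CPM in all other cells. The postpartum levels were 41.5 and 30.5 times that of pregnant 1 and their intervals lie far above it. Ccl4 was found in 0 of 3, 3 of 10, 2 of 3 and 13 of 16 myeloid cells, with at most 27 of the 125 UMIs of postpartum 2 in 1 cell, and in 0 vascular cells. The log2 difference between postpartum and pregnant was 4.83 ± 0.57, at a limma unadjusted p of 0.0156 and adjusted p of 0.305. Ccl4 (chromosome 11, 83648624 to 83664683) overlaps Ccl3 (83647843 to 83649378) in the annotation, so reads of the pair may not be fully separated.

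Cxcl2, which recruits neutrophils, had 0, 0, 4 and 29 UMIs, in 3 of 3 cells of postpartum 1 and 8 of 16 of postpartum 2. Nfkbia and Tnfaip3, feedback inhibitors that NF-kB itself switches on, had 3, 1, 14 and 58 and 0, 0, 1 and 28 UMIs. Ccl3 had 0, 1, 0 and 25 and so was seen postpartum in 1 library only. Nfkbia was also higher in the other islet cells of the postpartum libraries, at 2036 and 2396 CPM against 198 CPM in the non-pregnant library and 173 CPM in pregnant 1, but it was highest in those of pregnant 2, at 4655 CPM. Tnfaip3 stood at 9.27, 10.4, 106, 111 and 173 CPM in all other cells in library order. Their part in the myeloid values was not tested. The myeloid levels of Nfkbia were 644, 287, 51282 and 16210 CPM. Of 29 listed cytokine and chemokine genes 6 were measured, and the 4 tested were Ccl3, Ccl4, Cxcl2 and Cxcl10. These passed the UMI filter only through the postpartum libraries and so had to be higher there, and 0 of them were called by limma.

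Transcription factors and signalling genes of macrophages (6 of 25 measured, Nfkbia and Tnfaip3 among them) summed to 1930, 3440, 54945 and 27669 CPM in the same order. Of these, 3 of 4 tested were higher in postpartum than in pregnant myeloid cells with 0 called. The median log2 difference was 2.93 against -0.56 over all 166 genes. Nfkbia and Tnfaip3 passed the UMI filter only through the postpartum libraries and so had to be higher there, so the count and median are a description.

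The interferon-induced genes Isg15, a ubiquitin-like modifier, and Rsad2, an antiviral enzyme, had 1, 0, 4 and 40 and 0, 0, 4 and 22 UMIs. A single cell weighed heavily: 19 of the 40 Isg15 UMIs of postpartum 2 were in 1 cell, and Isg15 was found in 8 of 16 cells there. Cxcl10, a chemokine that interferon induces, had 0, 0, 1 and 10 UMIs. At 120 UMIs per cell, Isg15, Rsad2 or Cxcl10 was expected in 1.57%, 0%, 61.5% and 46.9% of the 3, 10, 3 and 16 myeloid cells, and in 0.345% to 1.00% of all other cells of these 4 libraries. In the other cells of pregnant 2 the share was 13.8%, from 33 cells deep enough. Ccl4, Ccl3 or Cxcl2 was found in 0 of 3, 1.38 of 10, 2.96 of 3 and 12.8 of 16 myeloid cells and in 0.0498% to 0.721% of all other cells. Unthinned, the latter were 0 of 3, 4 of 10, 3 of 3 and 14 of 16.

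Promoter sequence was read for 8 genes picked from the chemokine, NF-kB and interferon groups above, because NF-kB and interferon factors bind short known motifs. The letters show which of these genes carry a motif close to the start. Other genes that were higher in postpartum myeloid cells, such as Hspa1a and Pim1, were not read. The 120 bases before the annotated start come from RefSeq on GRCm38.p6 and are given 5′ to 3′ in the direction of the gene, with motif matches on either strand in capitals. The first group carries the NF-kB-type motif GGGNNTTTC, which 1.82% of all 32851 promoter windows of that length hold: Cxcl2 at chr5:90903779-90903898, Nfkbia at chr12:55492648-55492767 and Tnfaip3 at chr10:19015411-19015530.
Cxcl2: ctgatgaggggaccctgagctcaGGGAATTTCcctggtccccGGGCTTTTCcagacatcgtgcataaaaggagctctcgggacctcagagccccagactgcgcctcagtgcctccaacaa
Nfkbia: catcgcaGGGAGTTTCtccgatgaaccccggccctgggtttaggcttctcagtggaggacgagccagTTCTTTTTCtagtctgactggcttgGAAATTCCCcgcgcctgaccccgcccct
Tnfaip3: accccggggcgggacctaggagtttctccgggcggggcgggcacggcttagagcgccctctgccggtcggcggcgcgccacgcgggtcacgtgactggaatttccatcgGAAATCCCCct

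Cxcl2 held 2 matches, Nfkbia 2 and Tnfaip3 1 at its first start. The middle capital run of Nfkbia is a match to the interferon-response-type motif GAAANNGAA, which 3.11% of the windows hold. Isg15 (chr4:156200819-156200938) held 3 overlapping matches of that motif and Rsad2 (chr12:26456453-26456572) held 1.
Isg15: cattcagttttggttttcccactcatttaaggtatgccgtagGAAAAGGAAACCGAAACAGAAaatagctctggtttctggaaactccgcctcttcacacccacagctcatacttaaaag
Rsad2: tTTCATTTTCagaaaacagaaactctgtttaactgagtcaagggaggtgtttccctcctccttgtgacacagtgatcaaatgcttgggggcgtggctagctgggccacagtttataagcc

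Of 8 genes looked for, 7 are in the promoter table, 3 with the NF-kB-type and 4 with the interferon-type motif. Because the 8 were picked from these groups, the counts are a description and no comparison with the share of all windows. Ccl3 held 1 interferon-type match and Cxcl10 neither, and Ccl4 has no entry in the table. A match describes letters and not binding, and a window without one says nothing of the factor.

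Cell by cell, the 2 gene groups divided the myeloid cells by library. In each cell the UMIs of Ccl4, Ccl3, Cxcl2, Nfkbia and Tnfaip3 were set against those of Ctsb, Ctsd, Ctsz and Lgmn, genes chosen after their values were seen, so the counts are a description. The lysosomal sum was the larger in 3 of 3 non-pregnant cells and 10 of 10 cells of pregnant 1. The chemokine and NF-kB sum was the larger in 3 of 3 cells of postpartum 1, 16 of 16 of postpartum 2 and in the 1 cell of pregnant 2, which held 2 Ccl4 UMIs and 20 Psap UMIs among its 79. The median share of the lysosomal sum was 2.61%, 2.37%, 0% and 0% of a cell's UMIs in the order non-pregnant, pregnant 1, postpartum 1 and postpartum 2. This sum leaves out Psap, Ctss and other listed genes. All 19 measured lysosomal genes had 390, 285, 5 and 103 UMIs in the same order, so lysosomal transcripts were lower but not absent postpartum. The median share of the chemokine and NF-kB sum was 0%, 0.0781%, 9.86% and 4.40%. The range of the chemokine and NF-kB share in pregnant 1 did not overlap that of either postpartum library: 0% to 0.531% in pregnant 1 against at least 2.67% in postpartum 1 and 0.667% to 10.5% in postpartum 2.

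**Figure D4:**
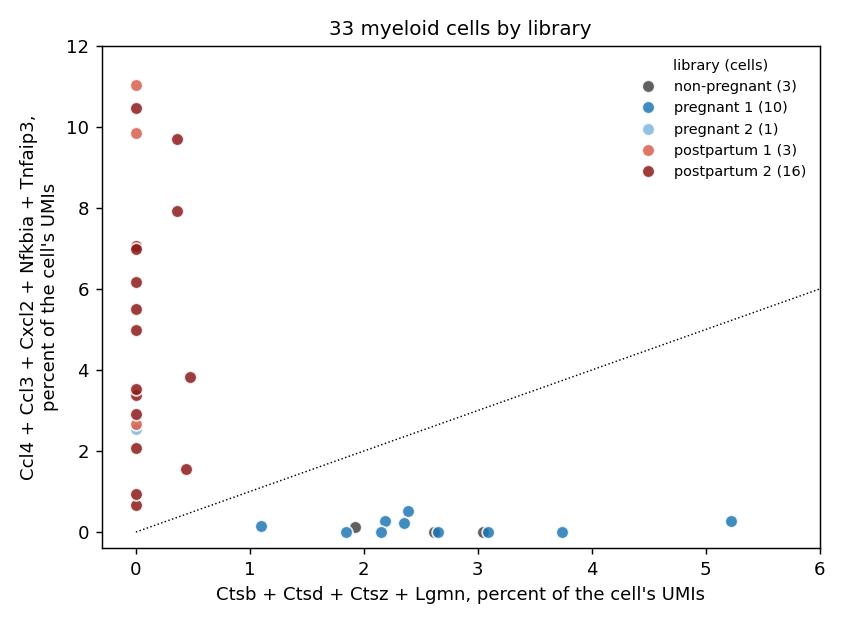
Each of the 33 myeloid cells as a point, with the share of its UMIs from Ctsb, Ctsd, Ctsz and Lgmn in percent on the x axis and from Ccl4, Ccl3, Cxcl2, Nfkbia and Tnfaip3 in percent on the y axis, coloured by library. The dotted line marks equal shares: all 3 non-pregnant and 10 pregnant 1 cells lie below it, and all 3 postpartum 1 cells, 16 postpartum 2 cells and the 1 pregnant 2 cell above it.

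**Figure D5:**
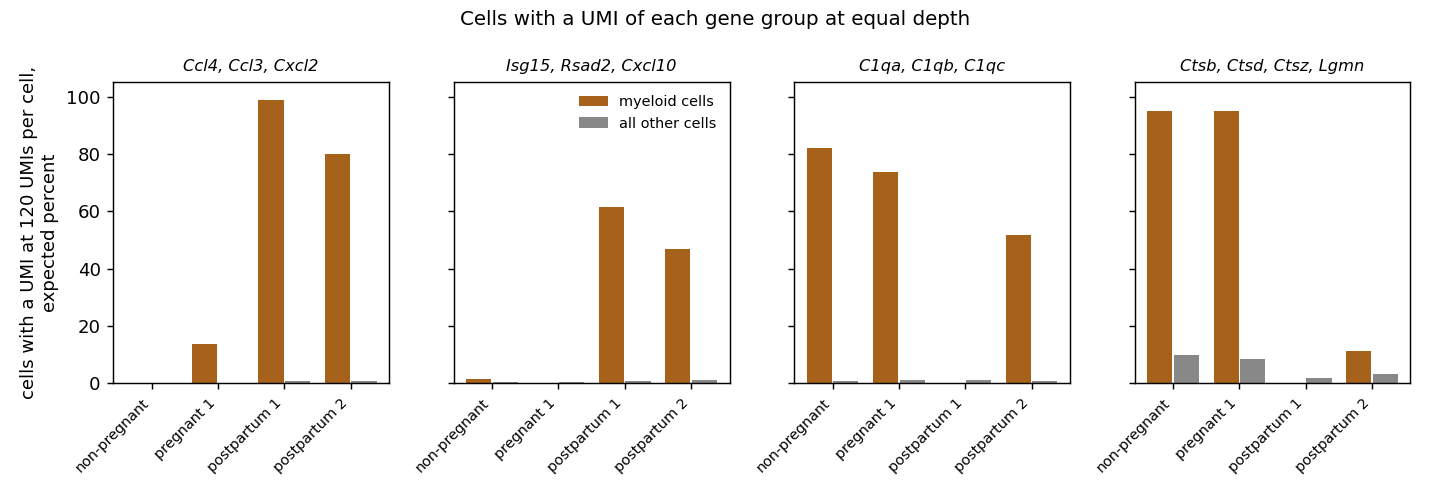
Expected percent of myeloid cells (brown) and all other cells (grey) with at least 1 UMI of each gene group when every cell is thinned to 120 UMIs, by library. Chemokine genes reach 98.7% and 80.0% of myeloid cells in postpartum 1 and 2 against 0% and 13.8% in the non-pregnant and pregnant 1 libraries, and the 4 lysosomal proteases 95.0% in both of the latter against 0% and 11.3%.

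Over all 166 genes tested in myeloid cells, limma called 2 for pregnant against non-pregnant (1.2%), the same number for postpartum against non-pregnant (1.2%) and 0 for postpartum against pregnant (0%), where 22 genes had an unadjusted p under 0.05. The 2 genes were Xist, the RNA that silences an X chromosome, and Tpt1, a growth-linked cytosolic protein, both lower than in the non-pregnant cells. Xist had 10 UMIs and Tpt1 14 in the non-pregnant myeloid cells and 0 elsewhere, with log2 differences of -3.03 and -3.46 in both comparisons (limma adjusted p = 0.049 and 0.0499 for pregnant, 0.0372 and 0.0378 for postpartum). Both passed the UMI filter only through that lone library, and the calls rest on the 0 spread of the postpartum pair. They were lost with edgeR, with DESeq2, with 1000 CPM added, with at least 20 UMIs and with libraries of at least 1 cell. In all other cells Xist had 1461, 266, 0, 1332 and 1258 CPM in library order. Tpt1 had 4984 CPM in those of the non-pregnant library and 18.5 to 106 CPM in the other 4. Of the comparison between postpartum and pregnant, genes with the lowest unadjusted p included Rab1a, a small GTPase of early secretion, and Reep5, which shapes the endoplasmic reticulum, both lower and at a limma adjusted p of 0.305.

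With edgeR on the recovered UMIs 14 of the 166 genes were called between postpartum and pregnant myeloid cells. The 9 higher were Ccl3, Cxcl2, Hspa1a, Isg15, Lars2, Nfkbia, Pim1, Rsad2 and Tnfaip3, with Isg15 at 8.02 (edgeR adjusted p = 0.00618) and Nfkbia at 6.15 (edgeR adjusted p = 0.00913). All 9 passed the UMI filter only through the postpartum libraries and so had to be higher there, so these calls are a description. The 5 lower were Cfl1, Ctsb, Ctsd, Hcls1 and Hmox1, of which Hcls1 and Hmox1 reached the filter only with the UMIs of pregnant 1. In all other cells of the same libraries the levels of the 14 lay on the same side of pregnant 1 in both postpartum libraries, for Ccl3, Cxcl2, Isg15 and Hcls1 from 0 or 1 UMI in postpartum 1, which shows no difference there. What the shift in the other cells adds to the myeloid values was not tested. Against the non-pregnant cells edgeR called 16 genes, 14 higher, Ccl4 among them at 9.64 (edgeR adjusted p = 0.00426), and 2 lower, Ctsb and H2-Ab1. Of the 14 higher, all but H3f3b again passed the filter only through the postpartum libraries. DESeq2 called 0 between postpartum and pregnant, with 6 at an unadjusted p under 0.05, and Ccl4 alone between postpartum and non-pregnant (9.51, DESeq2 adjusted p = 0.0306). Sizes for genes with 0 UMIs in a group depend on the tool's prior count.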

How the data were processed

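Single-cell RNA was measured in 5 islet libraries. The submitters' processing notes name Partek 8.0, Bowtie 1.1.1 and the builds GRCm38 and mm10, without saying at which step. The authors deposited the non-pregnant library as a normalized signal in which every cell sums to 3023.99, and the other 4 as log2(CPM + 1), per the file values. Each cell's smallest step gave back its unique molecules, and 100% of values came out whole within 0.1. They were summed over the cells of a class in a library and divided by the UMIs of 6619 non-hormone genes shared by all files, so the count test of the design was used only as an alternative and limma on log2(CPM + 300) was the main test.

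Genes needed 10 UMIs and libraries 3 cells of the class. The selection genes were left out, and p-values were adjusted by Benjamini-Hochberg over all genes tested at 0.05. The 1 residual degree of freedom comes from the postpartum pair, and the lone non-pregnant and pregnant libraries are assumed to vary like it. A fold change on this scale understates that of low genes. R 4.3.3, limma 3.58.1, edgeR 4.0.16, DESeq2 1.42.0 and Python 3.11.15 with scanpy 1.11.5, numpy 2.4.6, scipy 1.17.1 and pandas 2.3.3 were used. The fit was tested on simulated data.

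Doublets called by Scrublet were kept: 2 in the non-pregnant library, 4 and 25 in pregnant 1 and 2, and 2 and 15 in postpartum 1 and 2, with 2 selected cells among them, both in pregnant 2. Cell columns carry numbers and no barcodes, so barcodes shared between libraries could not be counted. No cell of the 4 log2 libraries was identical to one of another. Features without a match (54), with date-like names (14) and ribosomal RNA were left out. The labels do not say that replicate numbers pair the samples, so the main fit did not use them. Same-numbered libraries deviated with a correlation of 0.0489 in vascular and -0.0599 in myeloid cells. Pregnant 2 enters this with 1 cell of each class, so the correlation cannot show whether the numbers pair samples.

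Values are given for the selection and hormone genes, for genes of 16 lists and of the marker lists with at least 3 UMIs, for the 15 genes of a class with the highest mean ratio to all other cells, for the 10 called genes of a comparison with the lowest p (the 3 lowest where none was called), and for the genes behind counts of 5 or fewer. Cells and lists were chosen with earlier results of these data known. Alternatives were other added constants, filters, cell minimums, tools, left-out libraries and a replicate block. A gene that this rule would name is not reported here.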

Additional observations from a re-analysis of the deposited data

How the results depend on the processing

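The counts of called genes depend on how low genes enter the fit, and the cause was not tested except where the setting itself leaves fewer samples or other genes. In vascular cells 36, 54 and 17 genes were called for pregnant against non-pregnant, postpartum against non-pregnant and postpartum against pregnant. The same order gave 2549, 2225 and 963 with no filter, 3, 7 and 5 with at least 20 UMIs, 20, 20 and 0 with libraries of at least 1 cell, and 0, 0 and 0 with edgeR and with DESeq2. The third comparison gave 35 with 100 CPM added and 0 without the non-pregnant library. In myeloid cells 2, 2 and 0 genes were called. The same order gave 1508, 982 and 803 with no filter, 0, 16 and 14 with edgeR, 0, 1 and 0 with DESeq2, and 0, 0 and 0 with 1000 CPM added, with at least 20 UMIs and with libraries of at least 1 cell. The second comparison gave 61 vascular genes (5 higher, 56 lower) and 11 myeloid genes (8 higher, 3 lower) without pregnant 1, where all calls of the full fit were lower. With no filter 844 vascular and 707 myeloid genes were higher in the first comparison.

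With the replicate block, which needs libraries of at least 1 cell and was chosen after seeing the data, 34, 42 and 0 vascular and 0, 0 and 0 myeloid genes were called. By their labels the libraries share only a number. Sparc changed sign in 4 settings, in none of which it passed: between postpartum and non-pregnant it was -0.36 with edgeR and -0.23 with DESeq2, and between postpartum and pregnant 2.29 with libraries of at least 1 cell and 2.29 with the replicate block. Of 468 alternative values of named genes 344 kept direction and side of the threshold.

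Among cells of at least 500 UMIs the myeloid share of pregnant 1 was 0.183%, both shares of postpartum 1 were 0%, and postpartum 2 had 0.295% vascular and 0.148% myeloid cells. Pregnant 2 has no such cells, and the vascular share of pregnant 1 was 0.366%. At a marker threshold of 1% that share was 0.201%. Thinned to 200 UMIs, both shares of pregnant 2 and the myeloid share of postpartum 1 were 0%, and postpartum 2 kept 1.51% vascular and 1.42% myeloid cells. Without doublets both shares of pregnant 2 were 0%. Of 68 alternative shares 58 moved by less than their interval. Leaving out either postpartum library leaves no residual degrees of freedom, so those fits could not be made. Depth limits pregnant 2 most, where 1 UMI stands for 14493 CPM in vascular and 14085 CPM in myeloid cells, and then postpartum 1, where 1 UMI stands for 1256 CPM in vascular and 3663 CPM in myeloid cells.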

Other observations

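B2m, the light chain of MHC class I, differed in its order between cell classes. Its level in all other islet cells was 2018 CPM in the non-pregnant library, 2243 and 1798 CPM in pregnant 1 and 2, and 241 and 197 CPM in postpartum 1 and 2. In the same order it was 5780, 6975, 0, 11306 and 3804 CPM, from 81, 27, 0, 9 and 18 UMIs, in vascular cells. Myeloid cells had 11154, 5161, 0, 7326 and 4192 CPM, from 52, 18, 0, 2 and 15 UMIs. The 2 myeloid UMIs of postpartum 1 are under 3 counts (10989 CPM), so that library cannot be placed. The 0 UMIs of pregnant 2 allow up to 43478 CPM in vascular and 42254 CPM in myeloid cells. The log2 difference between postpartum and pregnant vascular cells was -0.08 ± 0.99 (SE) and did not pass in the limma fit. Lars2, a mitochondrial leucyl tRNA synthetase chosen after its values were seen, had 71 UMIs in the 16 myeloid cells of postpartum 2 (19844 CPM) and 1, 0 and 0 UMIs in those of pregnant 1, postpartum 1 and the non-pregnant library, against 409 to 1166 CPM in all other cells of the 5 libraries.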
